A study of Mus musculus with 9 samples.

Results

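Genes for extracellular matrix chains, the proteins that link and cross-link them, and the integrin receptors that bind them were followed across 3 mouse tumour lines. They were chosen by symbol alone: fibre and network collagens, laminin chains, integrin α and β subunits, fibulins, Sparc, thrombospondins, lysyl oxidases, nidogens, Fn1, Npnt, Tnc, Agrn and Hspg2. The rule found 45 of the 11046 genes in the deposited count table, and all 45 were among the 11037 genes tested. The values below cover 44 of them. The lines were 482N1, labelled lung NSCLC (non-small-cell lung cancer), B16F10-BrM, labelled BRAF mutant melanoma, and E0771-BrM, labelled triple negative breast cancer, where BrM stands for brain metastatic. All carry the genotype label WT, none was treated, and all were grown in culture, so no host tissue was sampled. The medium was DMEM for 482N1 and B16F10-BrM but RPMI 1640 with hepes for E0771-BrM, so line and medium cannot be told apart in any comparison with E0771-BrM. Each line had 3 libraries (A, B and C) of poly(A)-selected, stranded RNA. The labels do not say that these were separate cultures, and the errors and p-values below measure only the spread between these libraries.

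Basement membranes are sheets built on 2 networks, one of type IV collagen and one of laminin trimers made of an α, a β and a γ chain, which nidogens, perlecan and agrin tie together. Cells bind matrix through integrins, each a pair of an α and a β subunit. As textbook background, integrins α1β1 and α2β1 bind collagens, α3β1, α6β1, α7β1 and α6β4 bind laminins, and α5β1 and the αv integrins bind fibronectin and other ligands with an RGD motif. Since a receptor needs both subunits, and a laminin needs all of its chains, the values below are ordered by chain and then set beside those of the partners. Only RNA was measured, so neither protein nor assembled receptors were seen.

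B16F10-BrM had no read at all for 6 of the 44 genes, Col6a1, Col8a1, Fbln2, Itga3, Lamb3 and Tnc, all of which were detected in every library of the other lines. Of all genes tested, 1.84% had no read in this line. The promoters of these 6 are printed because the genes share that pattern. They are the 250 bases before the most upstream annotated start, from RefSeq on build GRCm38.p6, read 5′ to 3′ along the gene's strand. The authors' own build was GRCm39, so these positions are not coordinates of the deposited data. Capitals mark matches, on either strand, to 5 short motifs: the AP-1 site TGANTCA, the GC box GGGCGG, the CCAAT box CCAAT, the TATA box TATAAA and the TEAD site GGAATG.
Col8a1 (chr16:57754738-57754987, minus strand): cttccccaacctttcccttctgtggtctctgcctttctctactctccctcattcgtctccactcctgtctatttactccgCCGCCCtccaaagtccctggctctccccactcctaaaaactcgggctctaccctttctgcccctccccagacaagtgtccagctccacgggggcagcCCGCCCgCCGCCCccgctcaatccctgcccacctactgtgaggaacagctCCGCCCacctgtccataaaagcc
Col6a1 (chr10:76726045-76726294, minus strand): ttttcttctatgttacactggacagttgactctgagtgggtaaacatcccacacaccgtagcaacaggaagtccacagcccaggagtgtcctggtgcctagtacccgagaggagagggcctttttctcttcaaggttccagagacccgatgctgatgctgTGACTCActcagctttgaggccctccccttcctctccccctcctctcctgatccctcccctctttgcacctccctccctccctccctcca
Lamb3 (chr1:193301744-193301993, plus strand): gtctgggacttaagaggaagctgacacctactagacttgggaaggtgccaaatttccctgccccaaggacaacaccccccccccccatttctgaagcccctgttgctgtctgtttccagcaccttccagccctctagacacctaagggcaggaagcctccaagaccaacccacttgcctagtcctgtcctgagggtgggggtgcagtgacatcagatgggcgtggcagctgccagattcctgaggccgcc
Fbln2 (chr6:91212514-91212763, plus strand): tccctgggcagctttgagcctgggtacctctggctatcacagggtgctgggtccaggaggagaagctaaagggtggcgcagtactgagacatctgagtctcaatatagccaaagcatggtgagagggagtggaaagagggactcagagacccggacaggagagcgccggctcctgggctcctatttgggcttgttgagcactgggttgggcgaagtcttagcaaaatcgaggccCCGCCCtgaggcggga
Tnc (chr4:64047016-64047265, minus strand): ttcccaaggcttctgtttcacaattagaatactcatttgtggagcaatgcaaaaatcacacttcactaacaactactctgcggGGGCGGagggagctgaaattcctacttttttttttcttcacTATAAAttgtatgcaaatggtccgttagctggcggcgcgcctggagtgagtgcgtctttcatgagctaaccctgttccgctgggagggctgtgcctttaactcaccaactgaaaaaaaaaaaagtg
Itga3 (chr11:95076715-95076964, minus strand): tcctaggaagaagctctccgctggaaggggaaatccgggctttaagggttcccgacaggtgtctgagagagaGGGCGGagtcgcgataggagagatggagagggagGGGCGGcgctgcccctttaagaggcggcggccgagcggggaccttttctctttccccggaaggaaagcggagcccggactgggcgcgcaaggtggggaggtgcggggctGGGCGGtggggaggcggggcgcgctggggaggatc
The letters differ from gene to gene. Col8a1 had 4 GC boxes, Itga3 had 3, and Fbln2 and Tnc had 1 each. Tnc also had a TATA box, Col6a1 had an AP-1 site and no GC box, and Lamb3 matched none of the motifs. No base belonged to matches of different motifs. Promoters could be matched for 36 of the 44 genes, of which 22 held a GC box, 10 a CCAAT box, 2 a TEAD site, 1 an AP-1 site and 1 a TATA box. Among all 32851 windows of this length in the reference table the shares were 32.7% for the GC box, 33.8% for the CCAAT box, 12.6% for the TEAD site, 6.75% for the AP-1 site and 12.4% for the TATA box. Those windows were not reduced to 1 per gene, whereas each of the 36 genes had only its most upstream window, so the 2 sets are not alike. A match is a run of letters and not a measured binding site.

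Total counts lay between 7332390 and 9293348 per library, and the 44 genes took 0.412% to 0.438% of them in 482N1, 0.264% to 0.272% in E0771-BrM and 0.218% to 0.231% in B16F10-BrM. These totals include the ribosomal RNA gene Rn18s, at 11.6% to 13.1% in 482N1, 6.83% to 8.36% in E0771-BrM and 6.4% to 7.99% in B16F10-BrM. With ribosomal RNA genes removed, all 132 fold changes of the 44 genes kept direction and side of the threshold. Levels are given as normalised CPM (read counts per library, scaled to a common library size with TMM factors), as mean ± SD of 3 libraries. Where levels of different genes are compared per kilobase, they were divided by exon length in kilobases. Sums over genes, shares of such sums and count ratios of gene pairs are not corrected for length unless given per kilobase. Lineage markers were checked against the labels. Of 8 melanocyte markers 5 were measured. Their summed level was 24630 to 25484 in B16F10-BrM, 2.77 to 28.1 in 482N1 and 103 to 162 in E0771-BrM. Most of the E0771-BrM sum was Mitf and Gpnmb, which were steady across its libraries. Mitf stood at 38.6, 35 and 33.3 there in libraries A, B and C, and Gpnmb at 70.7, 63.3 and 64. Of 8 epithelial markers only the keratins Krt8 and Krt18 were measured. They summed to 7289 to 7908 in 482N1, 171 to 208 in E0771-BrM and 0 to 0.125 in B16F10-BrM. The E0771-BrM sum was nearly all Krt8 (188 ± 18.7), since Krt18 had 9 reads in that line (0.376 ± 0.374). Of 8 lung and 8 mammary markers, 4 and 3 were measured. The lung markers summed to 209 to 245 in 482N1 against at most 38.1 elsewhere. Among them Ctsh averaged 113 ± 12.3 in 482N1, and Etv5 47.3 ± 5.27 there and 30.8 ± 1.24 in E0771-BrM. Nkx2-1, Sftpc, Sftpb and Foxa2 are not analysed here, so the list checks the lung label only in part. The mammary markers were highest in 482N1 too, at 91.7 to 109.6 against 47.9 to 64.2 in E0771-BrM, so these lists mark no mammary identity. Melanocyte RNA also stood apart by library: Dct had 142, 14 and 148 counts in libraries A, B and C of 482N1 and 353, 29 and 263 in E0771-BrM, or 0.00979% to 0.260% of its mean level in B16F10-BrM. Results were therefore also computed with only library B of those 2 lines, and are given with it where that matters. A lower level in a bulk library can mean fewer cells that express a gene or less RNA per cell, and these cannot be told apart.

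The lines differed widely in this set of genes. Every one of the 44 differed among the 3 lines in the joint edgeR quasi-likelihood F test at an adjusted p (Benjamini-Hochberg over all genes) under 0.05, but so did 92.1% of all genes tested, so a call alone says little. In B16F10-BrM against 482N1, 33 genes were lower and 10 higher, where 39.9% and 38% of all genes were. At least 8-fold lower were 20 of the 44 (45.5%), against a background of 6.13%, and at least 8-fold higher were 6 (13.6%), against 3.45%. Hspg2 was the one gene that did not pass. In E0771-BrM against 482N1, 25 were lower and 15 higher, with backgrounds of 40.4% and 37.7%, and 11 and 4 passed 8-fold, with backgrounds of 5.45% and 3.29%. Col1a2, Col15a1, Itga5 and Itgb1 did not pass. In E0771-BrM against B16F10-BrM, 29 were higher and 12 lower, with backgrounds of 37.2% and 36.5%, and 16 and 8 passed 8-fold, with backgrounds of 5.1% and 4.43%. Npnt, Thbs3 and Itgb1bp1 did not pass. The comparisons share libraries and are not independent of each other. The median log2 difference of the 44 genes was -2.35, -0.57 and 1.45 in these 3 comparisons, beside -0.04, -0.04 and 0.02 over all genes.

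Counted by the line in which a gene was highest, with both pairwise differences past the test, 21 genes were highest in 482N1, 12 in E0771-BrM and 7 in B16F10-BrM. The shares of all genes tested were 25.4%, 19.3% and 19.8% in that order. The 4 genes with no single highest line were Itgb1, Itga5, Hspg2 and Itgb1bp1. Beside the 6 genes without a read in B16F10-BrM, E0771-BrM had none for Col4a5, where 0.834% of all genes had none in that line. Summed over the 44 genes the level was 4709 ± 133 in 482N1, 2538 ± 28.1 in E0771-BrM and 2140 ± 57 in B16F10-BrM. One gene, Sparc, made up 58.6 ± 1.82% of this sum in B16F10-BrM, against 3.29 ± 0.113% in 482N1 and 1.06 ± 0.181% in E0771-BrM.

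**Figure D1:**
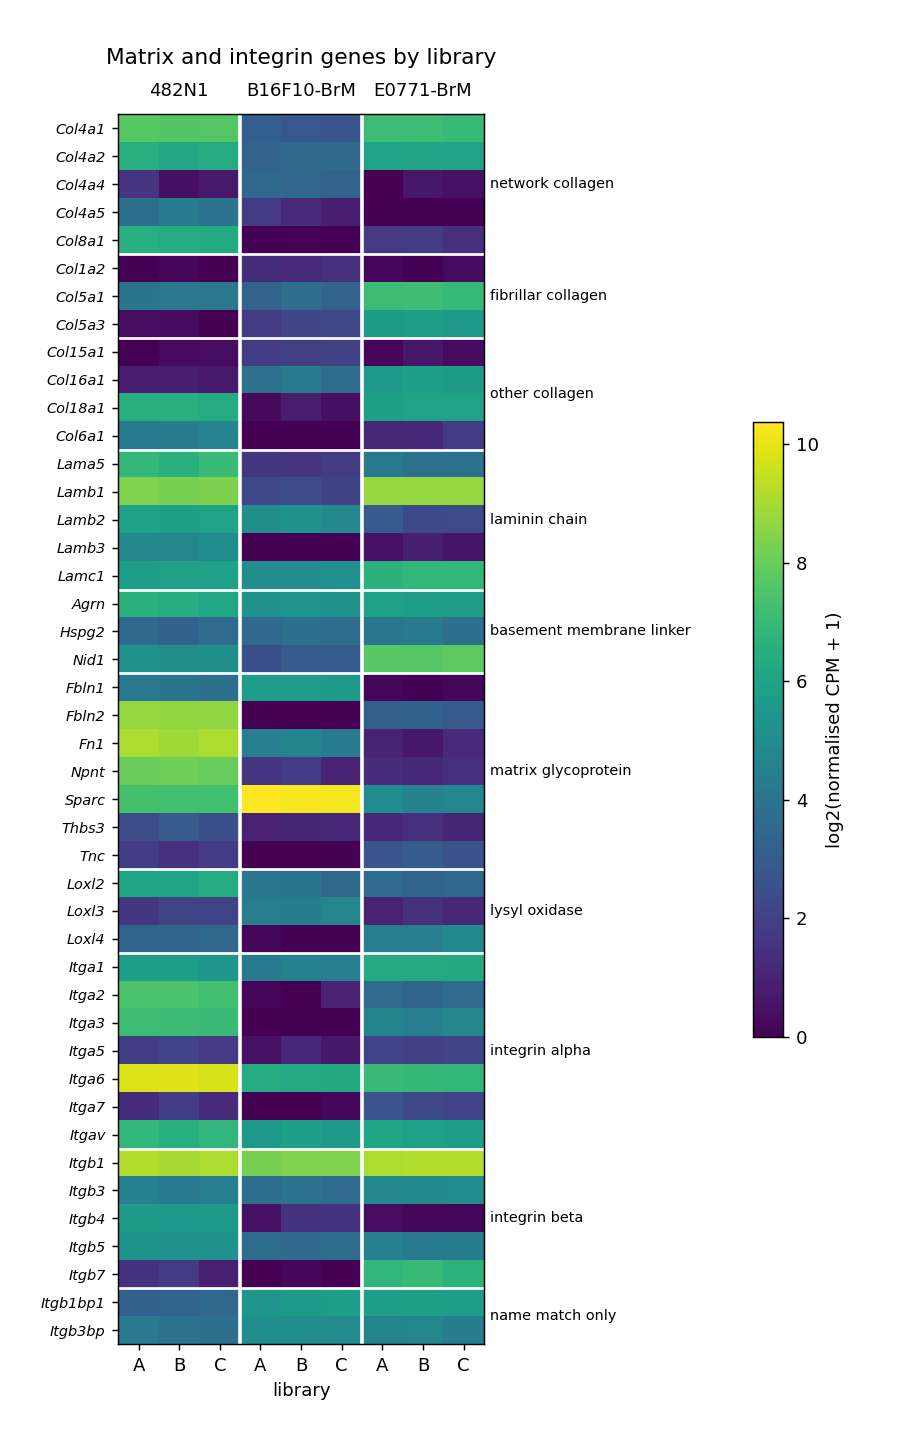
Level of each of the 44 genes (rows, grouped by role) in each of the 9 libraries (columns, A to C within each line), coloured by log2(normalised CPM + 1). The libraries of a line resemble each other; B16F10-BrM shows its darkest cells, at 0, for Col8a1, Col6a1, Lamb3, Fbln2, Tnc and Itga3 and its brightest row for Sparc.

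Type IV collagen RNA was high in 482N1 and E0771-BrM and low in B16F10-BrM. Col4a1, the α1 chain of the ubiquitous type IV trimer, stood at 203, 192 and 197 in the 482N1 libraries, 7.5, 6.27 and 5.71 in those of B16F10-BrM and 136, 143 and 131 in those of E0771-BrM. The B16F10-BrM libraries lay far below all others, 30.1-fold lower than in 482N1 (log2 fold change -4.91 ± 0.11, adjusted p = 4.84e-38), and those of E0771-BrM lay slightly below 482N1 (log2 fold change -0.52 ± 0.08, adjusted p = 4.45e-08). Col4a2, which supplies the α2 chain to the same trimer, stood at 90.2, 73.3 and 82.6 in the 482N1 libraries, 8.96, 10 and 11.2 in those of B16F10-BrM and 64.6, 66.1 and 62.6 in those of E0771-BrM. It was 8.16-fold lower in B16F10-BrM than in 482N1 (log2 fold change -3.03 ± 0.12, adjusted p = 6.11e-28) and modestly lower in E0771-BrM (log2 fold change -0.35 ± 0.10, adjusted p = 0.00107). With only library B of 482N1 and E0771-BrM that last difference was -0.15 and did not pass (adjusted p = 0.448). The 2 genes start head to head on opposite strands of chromosome 8, with annotated starts 21 bases apart in GRCm38.p6, so that their first exons overlap there. Their RNAs were nonetheless not in a fixed ratio: the count of Col4a1 over that of Col4a2 was 2.42 ± 0.187 in 482N1 and 2.13 ± 0.0384 in E0771-BrM, but 0.658 ± 0.166 in B16F10-BrM, with no overlap between B16F10-BrM and the other lines.

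The minor type IV chains followed other patterns. Col4a4, a chain of the α3α4α5 trimer of kidney and other specialised membranes, stood at 1.93, 0.361 and 0.634 in the 482N1 libraries, 10.1, 9.53 and 8.85 in those of B16F10-BrM and 0, 0.60 and 0.374 in those of E0771-BrM. It was highest in B16F10-BrM, as among collagens only Col1a2 and Col15a1 also were, 9.74-fold over 482N1 (log2 fold change 3.28 ± 0.35, adjusted p = 2.57e-11), and 4.23 on the log2 scale without library A of 482N1. Its difference between E0771-BrM and 482N1 (log2 fold change -1.5 ± 0.66, adjusted p = 0.0355) was lost without library A of 482N1 (-0.56, adjusted p = 0.513), A of E0771-BrM (-0.95, adjusted p = 0.171) or C of E0771-BrM (-1.6, adjusted p = 0.0607). With only library B of both lines its sign turned (0.71, adjusted p = 0.564), and with the library letter as a block the adjusted p was 0.0506. Col4a5, which joins both the α3α4α5 trimer and one with α6, stood at 13.4, 18.8 and 14.6 in the 482N1 libraries, 2.4, 1.38 and 0.816 in those of B16F10-BrM and 0 in every library of E0771-BrM. It was at least 126-fold lower in E0771-BrM than in 482N1, counted against a floor of 3 reads over the line's libraries, and 9.92-fold lower in B16F10-BrM (log2 fold change -3.31 ± 0.27, adjusted p = 5.54e-15). Col8a1, a short-chain network collagen of vessel and eye membranes, stood at 88.6, 82.7 and 79.5 in the 482N1 libraries, 0 in every library of B16F10-BrM and 2.41, 2.52 and 1.62 in those of E0771-BrM. That is at least 729-fold lower in B16F10-BrM and 38-fold lower in E0771-BrM than in 482N1 (log2 fold change -5.25 ± 0.16, adjusted p = 9.9e-31).

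Of the other collagens, Col5a1 and Col5a3, chains of the fibrillar type V collagen that nucleates collagen fibres, were both highest in E0771-BrM. Col5a1 stood at 15.3, 16.1 and 16.1 in the 482N1 libraries, 8.96, 11.9 and 8.62 in those of B16F10-BrM and 139, 143 and 123 in those of E0771-BrM, 8.51-fold above 482N1 in E0771-BrM (log2 fold change 3.09 ± 0.11, adjusted p = 2.99e-29) and 13.8-fold above B16F10-BrM (log2 fold change 3.79 ± 0.12, adjusted p = 7.6e-32). Col5a3 stood at 0.258, 0.241 and 0 in the 482N1 libraries, 2.4, 3.39 and 3.73 in those of B16F10-BrM and 49.1, 54.1 and 48.6 in those of E0771-BrM, so the lines were ordered E0771-BrM, B16F10-BrM and 482N1 with no overlap (log2 fold change 4.0 ± 0.17, adjusted p = 6.08e-26 for the first step and log2 fold change 4.12 ± 0.48, adjusted p = 1.35e-10 for the second). Col16a1, which associates with the surface of fibrils, had the same order at 0.774, 0.842 and 0.634 in the 482N1 libraries, 13.9, 17.2 and 12.1 in those of B16F10-BrM and 48.6, 56.3 and 50.5 in those of E0771-BrM (log2 fold change 1.85 ± 0.13, adjusted p = 7.39e-18, then log2 fold change 4.23 ± 0.25, adjusted p = 2.4e-20).

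Col18a1, whose core protein carries heparan sulphate in basement membranes and releases endostatin, stood at 88.7, 88.7 and 83.1 in the 482N1 libraries, 0.208, 0.753 and 0.35 in those of B16F10-BrM and 59.1, 62.5 and 64.2 in those of E0771-BrM. It was 199-fold lower in B16F10-BrM than in 482N1 (log2 fold change -7.64 ± 0.20, adjusted p = 2.49e-35, and -8.23 without library B of B16F10-BrM) and only slightly lower in E0771-BrM (log2 fold change -0.49 ± 0.10, adjusted p = 1.12e-05). Col15a1, its close relative, was low everywhere at 0, 0.241 and 0.254 in the 482N1 libraries, 2.6, 2.89 and 3.03 in those of B16F10-BrM and 0.127, 0.60 and 0.249 in those of E0771-BrM, and here B16F10-BrM was the highest line (log2 fold change 3.97 ± 0.59, adjusted p = 4.87e-08 over 482N1). Col6a1, a chain of the beaded-filament collagen, stood at 18.3, 19.5 and 23.3 in the 482N1 libraries, 0 in every library of B16F10-BrM and 1.14, 1.32 and 2.49 in those of E0771-BrM, at least 178-fold lower in B16F10-BrM than in 482N1. Col1a2, a chain of the main fibrillar collagen, was nearly silent, with 1, 41 and 3 reads over the 3 libraries of 482N1, B16F10-BrM and E0771-BrM, that is 0, 0.12 and 0 in the 482N1 libraries, 1.56, 1.38 and 1.75 in those of B16F10-BrM and 0.127, 0 and 0.249 in those of E0771-BrM. Its level in B16F10-BrM over that in 482N1 was a ratio of 37.5 (95% counting interval 6.37 to 1519). The partner chains Col1a1, Col3a1, Col6a2 and Col6a3 are not analysed here.

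**Figure D2:**
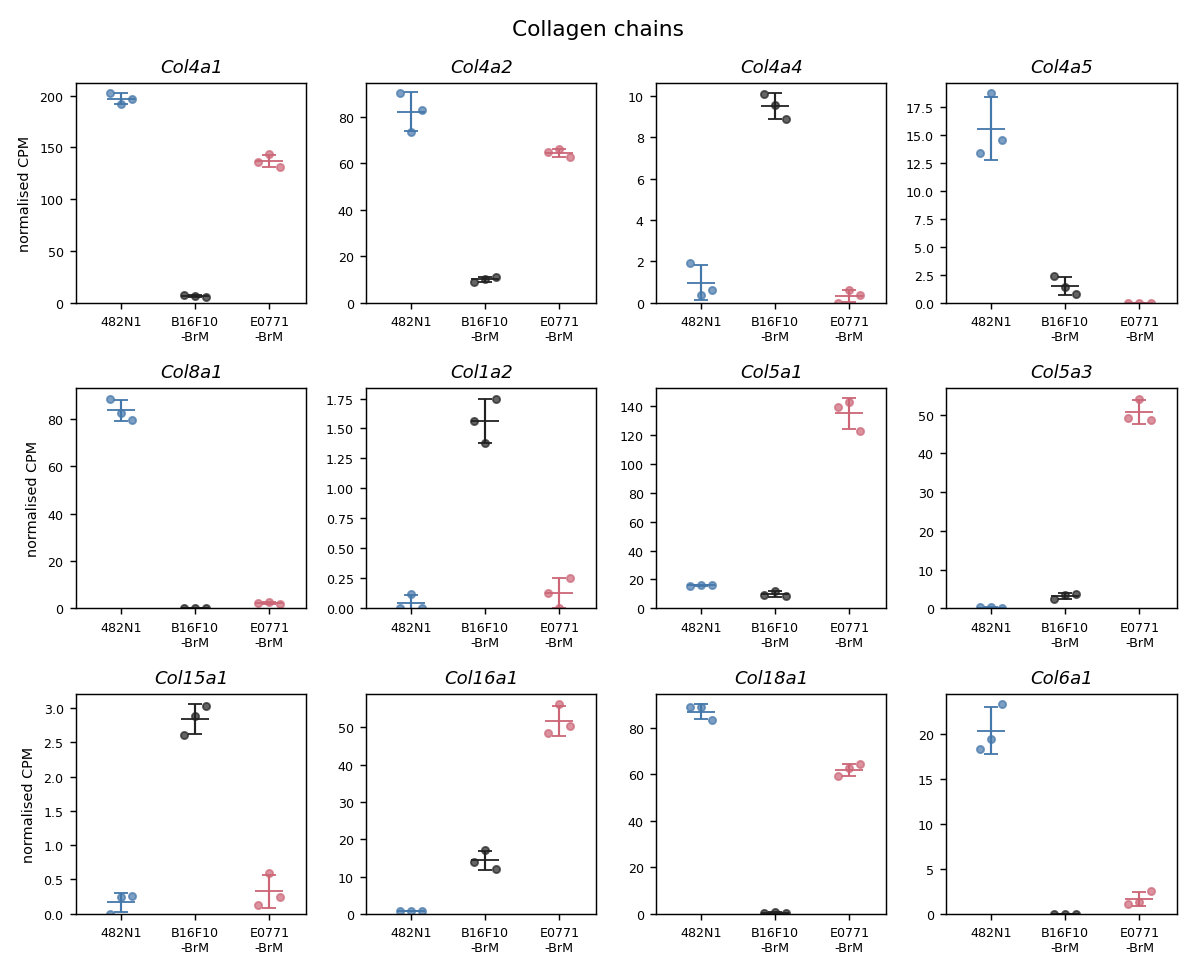
Normalised CPM (vertical axes, each from 0) of the 12 collagen genes in the 3 lines; points are libraries A to C from left to right, bars the mean ± SD of 3 libraries. The type IV pair Col4a1 and Col4a2 is high in 482N1 and E0771-BrM, Col5a1, Col5a3 and Col16a1 are high in E0771-BrM, and Col8a1 and Col6a1 are high in 482N1.

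Laminin RNA separated the lines chain by chain. Lama5, the one laminin α chain analysed here and the α chain of laminins α5β1γ1 and α5β2γ1, stood at 116, 95.8 and 127 in the 482N1 libraries, 2.19, 2.01 and 2.56 in those of B16F10-BrM and 17.1, 14.2 and 14.1 in those of E0771-BrM. It was 49.7-fold lower in B16F10-BrM (log2 fold change -5.64 ± 0.16, adjusted p = 6.86e-34) and 7.46-fold lower in E0771-BrM (log2 fold change -2.9 ± 0.12, adjusted p = 6.92e-27) than in 482N1. Lama1, Lama2, Lama3 and Lama4 are not analysed here, so the partners of the β and γ chains are known only in part.

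The β chains changed places between lines. Lamb1, the β chain of laminins such as α1β1γ1 and α5β1γ1, stood at 326, 303 and 319.8 in the 482N1 libraries, 3.75, 4.39 and 3.03 in those of B16F10-BrM and 420.9, 422 and 426 in those of E0771-BrM. E0771-BrM lay 1.34-fold above 482N1 (log2 fold change 0.42 ± 0.07, adjusted p = 7.52e-07) and 114-fold above B16F10-BrM (log2 fold change 6.83 ± 0.11, adjusted p = 1.16e-42). Lamb2, its alternative in laminins such as α5β2γ1, stood at 60.9, 58.1 and 64 in the 482N1 libraries, 34.1, 38.3 and 28.8 in those of B16F10-BrM and 6.98, 4.08 and 4.11 in those of E0771-BrM, and was lowest in E0771-BrM instead (log2 fold change -2.74 ± 0.16, adjusted p = 3.2e-20 against B16F10-BrM). Lamb1 thus made up 76.7 ± 0.918% of laminin β RNA per kilobase in 482N1, 98.6 ± 0.362% in E0771-BrM and 9.58 ± 0.374% in B16F10-BrM. The count of Lamb1 over that of Lamb2 was 5.19 ± 0.180, 89.1 ± 24.9 and 0.110 ± 0.00475 in those lines.

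Lamc1, the γ1 chain common to most laminins, stood at 56.4, 61.1 and 60.7 in the 482N1 libraries, 33.2, 33.4 and 37.2 in those of B16F10-BrM and 101, 115 and 116 in those of E0771-BrM, highest in E0771-BrM (log2 fold change 0.9 ± 0.09, adjusted p = 9.69e-13 over 482N1). In B16F10-BrM it was only 1.72-fold lower than in 482N1 (log2 fold change -0.78 ± 0.10, adjusted p = 4.65e-10), and it and Lamb2 had the highest levels of the laminin chains described here in that line. Lamb3, a β chain of the anchoring laminin of epithelia, stood at 28.6, 25.2 and 31.8 in the 482N1 libraries, 0 in every library of B16F10-BrM and 0.381, 0.84 and 0.499 in those of E0771-BrM. It was high in 482N1 alone, 48.2-fold lower in E0771-BrM (log2 fold change -5.59 ± 0.27, adjusted p = 3.73e-23, and -4.88 with library B alone of both lines) and, without a read in B16F10-BrM, at least 249-fold lower there than in 482N1.

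Per kilobase of exon, β chains outweighed the measured α chain in every line. The α5 chain stood at 9.92 ± 1.38 and the β chains summed to 70.5 ± 3.0 CPM per kilobase in 482N1. In E0771-BrM these values were 1.33 ± 0.153 and 73.4 ± 0.341. In B16F10-BrM they were 0.198 ± 0.0249 and 6.62 ± 0.961. The β chain sum in E0771-BrM was thus close to that in 482N1, while its measured α chain was lower, and B16F10-BrM was low in both.

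The linkers followed the laminins only in part. Nid1, nidogen-1, which bridges the laminin γ1 chain to type IV collagen, stood at 37.7, 34.2 and 34.7 in the 482N1 libraries, 4.69, 6.77 and 7.11 in those of B16F10-BrM and 207, 200.2 and 221 in those of E0771-BrM. It was 5.9-fold higher in E0771-BrM than in 482N1 (log2 fold change 2.56 ± 0.09, adjusted p = 5.64e-29) and 5.78-fold lower in B16F10-BrM (log2 fold change -2.53 ± 0.13, adjusted p = 7.4e-23). Agrn, agrin, a heparan sulphate proteoglycan that joins laminin to dystroglycan, stood at 99.2, 86.3 and 74.1 in the 482N1 libraries, 38, 41.7 and 39.4 in those of B16F10-BrM and 60.5, 54 and 56 in those of E0771-BrM and was highest in 482N1 (log2 fold change -1.13 ± 0.10, adjusted p = 2.14e-14 for B16F10-BrM and log2 fold change -0.61 ± 0.10, adjusted p = 2.34e-07 for E0771-BrM). Hspg2, perlecan, lay between 8.42 and 17.9 in all 9 libraries. It was higher in E0771-BrM than in 482N1 (log2 fold change 0.63 ± 0.17, adjusted p = 0.000969), while its difference from B16F10-BrM (log2 fold change 0.4 ± 0.17, adjusted p = 0.0282) no longer passed when any 1 of 4 libraries was left out (A or C of B16F10-BrM, A or B of E0771-BrM), with values of 0.29 to 0.40.

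**Figure D3:**
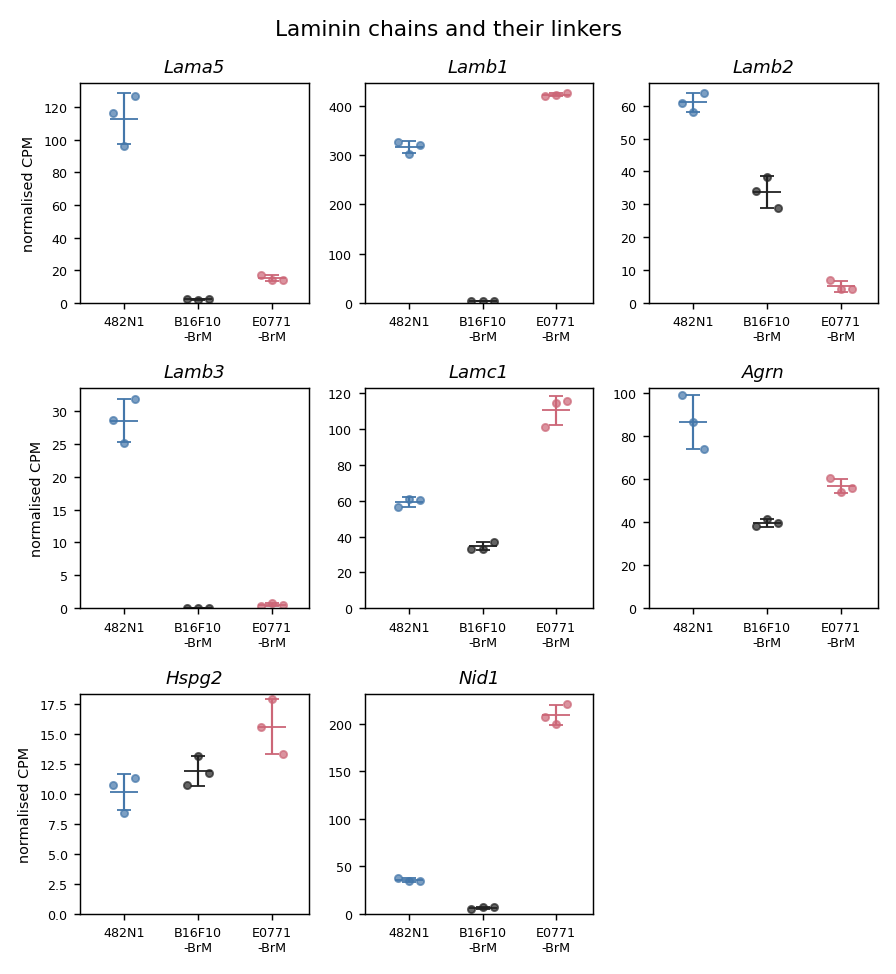
Normalised CPM (vertical axes, each from 0) of 5 laminin chains and of the linkers Agrn, Hspg2 and Nid1 in the 3 lines; points are libraries A to C, bars the mean ± SD of 3 libraries. Lamb1, Lamc1 and Nid1 are highest in E0771-BrM, Lama5 and Lamb3 in 482N1, and in B16F10-BrM Lamb2 and Lamc1 are the highest of these chains.

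The 7 matrix glycoproteins summed to 1366 ± 39.5 CPM in 482N1, 44.3 ± 3.92 in E0771-BrM and 1331 ± 70.8 in B16F10-BrM. Sparc alone made up most of the sum in B16F10-BrM, and the other 6 summed to 1211 ± 36.8, 17.5 ± 1.51 and 76.1 ± 7.38 in the same order. Tnc was the one of the 7 that was highest in E0771-BrM. Fn1, fibronectin, which cells assemble into fibrils through α5β1, stood at 549, 471 and 540.1 in the 482N1 libraries, 21.4, 23.8 and 18.5 in those of B16F10-BrM and 1.02, 0.60 and 1.37 in those of E0771-BrM. It was 24.5-fold lower in B16F10-BrM (log2 fold change -4.62 ± 0.10, adjusted p = 8.29e-39) and 517-fold lower in E0771-BrM than in 482N1 (log2 fold change -9.01 ± 0.15, adjusted p = 9.63e-43), with all 3 lines apart. Npnt, nephronectin, a ligand of integrin α8β1, stood at 252, 273 and 246 in the 482N1 libraries, 1.98, 2.63 and 1.05 in those of B16F10-BrM and 1.52, 1.32 and 1.62 in those of E0771-BrM, more than 100-fold above both other lines (log2 fold change -7.09 ± 0.14, adjusted p = 4.66e-40 and log2 fold change -7.42 ± 0.15, adjusted p = 8.73e-40). Between those 2 lines it did not pass the test (log2 fold change -0.33 ± 0.31, adjusted p = 0.337).

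The fibulins, secreted proteins that bind laminin, fibronectin and elastic fibres, differed in opposite directions between B16F10-BrM and 482N1, and both were lower in E0771-BrM than in 482N1. Fbln2 stood at 422, 406 and 405 in the 482N1 libraries, 0 in every library of B16F10-BrM and 7.74, 8.28 and 6.61 in those of E0771-BrM, at least 3583-fold lower in B16F10-BrM and 54.3-fold lower in E0771-BrM than in 482N1 (log2 fold change -5.76 ± 0.11, adjusted p = 5.54e-40). Fbln1 stood at 16.6, 15 and 13.1 in the 482N1 libraries, 55, 53.8 and 46.8 in those of B16F10-BrM and 0.127, 0 and 0.125 in those of E0771-BrM, highest in B16F10-BrM, where it was 3.48-fold over 482N1 (log2 fold change 1.8 ± 0.13, adjusted p = 1.38e-17). E0771-BrM had 2 reads of Fbln1 in all, and the ratio of 482N1 to it was 181 (95% counting interval 49.6 to 1497).

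Sparc, osteonectin, a calcium- and collagen-binding matricellular protein, stood at 161, 156 and 148 in the 482N1 libraries, 1328, 1237 and 1200.0 in those of B16F10-BrM and 31.6, 22.9 and 26.1 in those of E0771-BrM. The lines did not overlap: B16F10-BrM was 8.1-fold over 482N1 (log2 fold change 3.02 ± 0.08, adjusted p = 6.87e-35) and 46.8-fold over E0771-BrM (log2 fold change -5.55 ± 0.09, adjusted p = 3.77e-42 for E0771-BrM over B16F10-BrM). Since the libraries of 482N1 and E0771-BrM held traces of melanocyte RNA, the same differences were computed with library B alone of each, and were 3.01 and -5.77. Tnc, tenascin-C, a matricellular protein of remodelled tissue, stood at 2.71, 1.68 and 2.54 in the 482N1 libraries, 0 in every library of B16F10-BrM and 5.58, 7.2 and 5.24 in those of E0771-BrM. It was highest in E0771-BrM (log2 fold change 1.38 ± 0.30, adjusted p = 5.07e-05 over 482N1, and 2.09 with library B alone of both lines) and at least 52.4-fold higher there than in B16F10-BrM. Thbs3, a thrombospondin, was low at 4.51, 6.98 and 4.82 in the 482N1 libraries, 0.938, 1.13 and 1.28 in those of B16F10-BrM and 1.27, 1.68 and 1.12 in those of E0771-BrM, highest in 482N1 (log2 fold change -2.28 ± 0.33, adjusted p = 3.46e-08 and log2 fold change -1.99 ± 0.33, adjusted p = 4.12e-07 for the other lines over it).

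Of the lysyl oxidase family, enzymes that cross-link collagen and elastin, each of the 3 measured members was highest in a different line. Loxl2, which acts on type IV collagen, stood at 70.6, 66.9 and 84.7 in the 482N1 libraries, 15.6, 15.4 and 10.6 in those of B16F10-BrM and 11.3, 9.24 and 10.5 in those of E0771-BrM, 5.32-fold lower in B16F10-BrM (log2 fold change -2.41 ± 0.13, adjusted p = 5.88e-22) and 7.16-fold lower in E0771-BrM (log2 fold change -2.84 ± 0.14, adjusted p = 1.03e-23) than in 482N1. Its small difference between those lines (log2 fold change -0.43 ± 0.16, adjusted p = 0.0132) was lost without library A or B of B16F10-BrM or B of E0771-BrM, at -0.35 to -0.33. Loxl3 averaged 2.99 ± 0.695, 22.1 ± 3.24 and 1.35 ± 0.403 in 482N1, B16F10-BrM and E0771-BrM, and was 7.31-fold higher in B16F10-BrM than in 482N1 (log2 fold change 2.87 ± 0.21, adjusted p = 4.41e-17). Loxl4 averaged 9.44 ± 0.497, 0.0347 ± 0.0601 and 23.7 ± 5.31 and was highest in E0771-BrM (log2 fold change 1.32 ± 0.18, adjusted p = 3.22e-09 over 482N1). B16F10-BrM had 1 read of Loxl4.

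**Figure D4:**
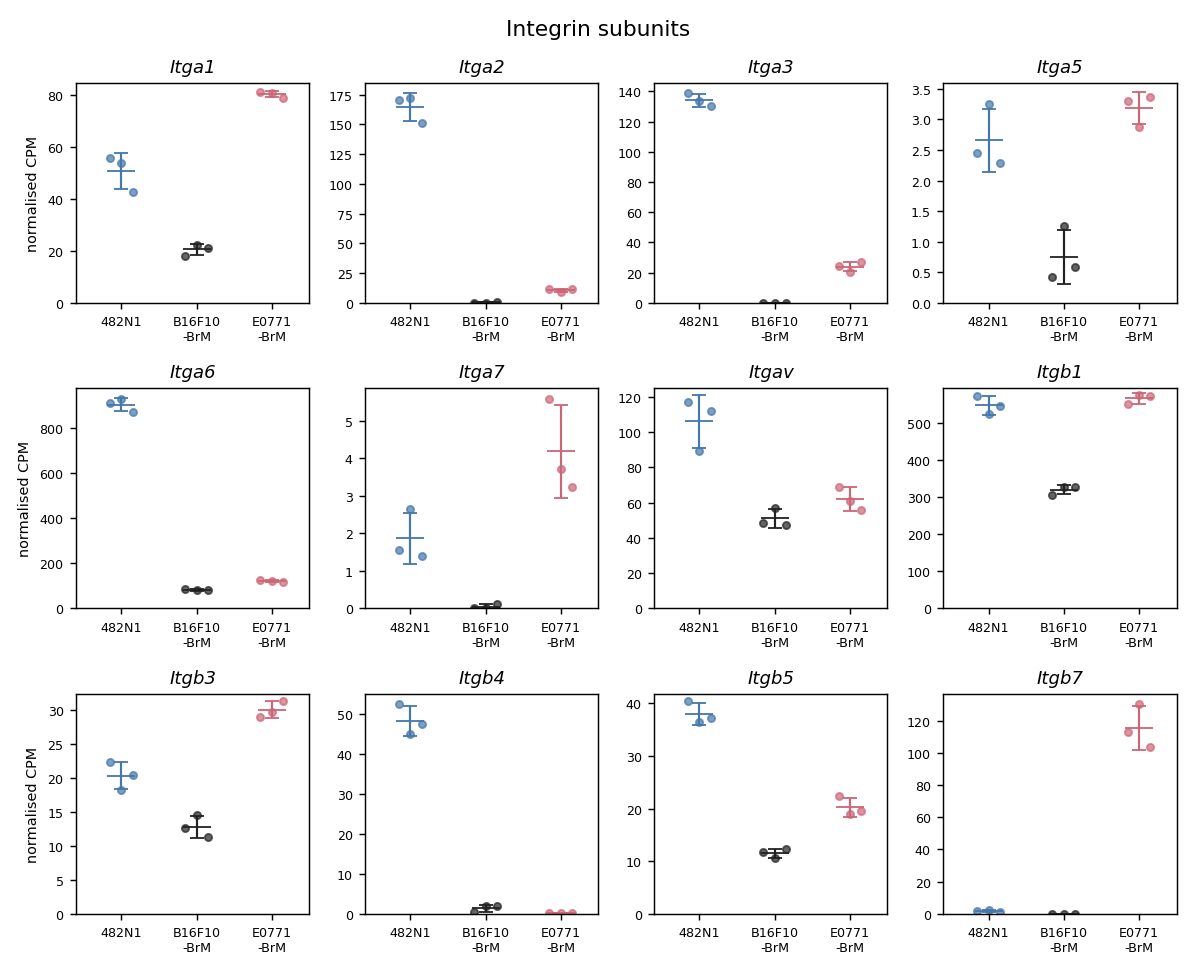
Normalised CPM (vertical axes, each from 0) of the 7 integrin α and 5 integrin β subunit genes in the 3 lines; points are libraries A to C, bars the mean ± SD of 3 libraries. Itga2, Itga3, Itga6 and Itgb4 are high in 482N1, Itgb7 is high in E0771-BrM, and Itgb1 stays within 306 to 576 CPM in all 9 libraries.

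B16F10-BrM had the lowest mean of the 3 lines for each of the 7 integrin α subunits. For Itgav its libraries overlapped those of E0771-BrM, and that call did not hold in every alternative. Itga6, the laminin receptor subunit that pairs with β1 or β4, stood at 909, 928 and 869 in the 482N1 libraries, 85.5, 81.2 and 78.8 in those of B16F10-BrM and 126, 120.1 and 116 in those of E0771-BrM. It was 11-fold lower in B16F10-BrM (log2 fold change -3.46 ± 0.08, adjusted p = 4.72e-38) and 7.48-fold lower in E0771-BrM (log2 fold change -2.9 ± 0.07, adjusted p = 3.09e-35) than in 482N1, yet in each line it was the leading α subunit per kilobase, with 74.9 ± 0.793% of α RNA in 482N1, 53.7 ± 0.952% in E0771-BrM and 66.8 ± 2.66% in B16F10-BrM. Itga3, the partner of β1 in the main receptor for laminins with an α3 or α5 chain, stood at 139, 134 and 130.3 in the 482N1 libraries, 0 in every library of B16F10-BrM and 24.4, 20.6 and 26.9 in those of E0771-BrM. It was 5.6-fold lower in E0771-BrM than in 482N1 (log2 fold change -2.49 ± 0.10, adjusted p = 1.04e-25) and at least 1171-fold lower in B16F10-BrM. Itga7, a laminin receptor subunit best known from muscle, was low at 1.55, 2.65 and 1.39 in the 482N1 libraries, 0, 0 and 0.117 in those of B16F10-BrM and 5.58, 3.72 and 3.24 in those of E0771-BrM. It was higher in E0771-BrM than in 482N1 (log2 fold change 1.15 ± 0.34, adjusted p = 0.00223), although with library B alone of each the difference was 0.49 with an adjusted p of 0.465.

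The collagen-binding subunits did not move together. Itga2 stood at 171, 172 and 151 in the 482N1 libraries, 0.104, 0 and 0.932 in those of B16F10-BrM and 11.3, 9.24 and 11.3 in those of E0771-BrM. It was 458-fold lower in B16F10-BrM (log2 fold change -8.84 ± 0.22, adjusted p = 2.88e-29) and 15.5-fold lower in E0771-BrM (log2 fold change -3.95 ± 0.13, adjusted p = 4.36e-25) than in 482N1. Of the 9 reads of Itga2 in B16F10-BrM, 8 were in library C, and without that library the ratio of 482N1 to B16F10-BrM was 2896 (95% counting interval 519 to 114395). Itga1 stood at 55.5, 53.7 and 42.6 in the 482N1 libraries, 18, 22.3 and 21.1 in those of B16F10-BrM and 81.1, 80.7 and 78.8 in those of E0771-BrM, highest in E0771-BrM (log2 fold change 0.66 ± 0.10, adjusted p = 7.98e-08 over 482N1) and lowest in B16F10-BrM (log2 fold change -1.31 ± 0.11, adjusted p = 1.08e-14 over 482N1). Per kilobase, 482N1 held 23.2 ± 1.65 CPM of Itga2 and 4.61 ± 0.636 of Itga1, while E0771-BrM held 1.49 ± 0.169 and 7.31 ± 0.113. The larger of the 2 collagen receptor subunits was thus Itga2 in 482N1 and Itga1 in the other lines, where B16F10-BrM held 0.0486 ± 0.0719 and 1.87 ± 0.202.

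Of the RGD-binding subunits, Itgav, which pairs with several β subunits, stood at 117, 89.2 and 112 in the 482N1 libraries, 48.6, 57.2 and 47.2 in those of B16F10-BrM and 69.2, 60.7 and 55.7 in those of E0771-BrM. It was highest in 482N1 (log2 fold change -1.06 ± 0.10, adjusted p = 1.02e-12 for B16F10-BrM and log2 fold change -0.78 ± 0.10, adjusted p = 2.8e-09 for E0771-BrM). Its difference between E0771-BrM and B16F10-BrM (log2 fold change 0.28 ± 0.10, adjusted p = 0.0143) did not survive leaving out library A or C of B16F10-BrM or A of E0771-BrM, at 0.19 to 0.25, or keeping only library B of 482N1 and E0771-BrM (0.25, adjusted p = 0.0836). Itga5, the fibronectin receptor subunit, was low in all lines at 2.45, 3.25 and 2.28 in the 482N1 libraries, 0.417, 1.25 and 0.583 in those of B16F10-BrM and 3.3, 2.88 and 3.37 in those of E0771-BrM. It was lower in B16F10-BrM than in 482N1 (log2 fold change -1.85 ± 0.41, adjusted p = 9.15e-05), and between E0771-BrM and 482N1 it did not pass (log2 fold change 0.25 ± 0.32, adjusted p = 0.475).

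Itgb1, the β subunit shared by most matrix integrins, was the steadiest of the integrin genes at 573, 523 and 547 in the 482N1 libraries, 306, 328 and 328 in those of B16F10-BrM and 550.5, 576 and 573 in those of E0771-BrM. It was 1.71-fold lower in B16F10-BrM than in 482N1 (log2 fold change -0.77 ± 0.07, adjusted p = 2.51e-14), and E0771-BrM and 482N1 overlapped (log2 fold change 0.05 ± 0.07, adjusted p = 0.518). Itgb4, which pairs with α6 in hemidesmosomes, stood at 52.5, 45.1 and 47.4 in the 482N1 libraries, 0.417, 1.88 and 1.86 in those of B16F10-BrM and 0.254, 0.12 and 0.125 in those of E0771-BrM, 35.6-fold lower in B16F10-BrM (log2 fold change -5.15 ± 0.22, adjusted p = 9.04e-26) and 268-fold lower in E0771-BrM (log2 fold change -8.07 ± 0.31, adjusted p = 3.26e-27) than in 482N1. Itgb5, a partner of αv for vitronectin, stood at 40.4, 36.5 and 37.1 in the 482N1 libraries, 11.8, 10.5 and 12.2 in those of B16F10-BrM and 22.3, 19 and 19.6 in those of E0771-BrM, in the order 482N1, E0771-BrM and B16F10-BrM (log2 fold change -0.91 ± 0.12, adjusted p = 5.27e-09, then log2 fold change 0.81 ± 0.14, adjusted p = 9.29e-07 for E0771-BrM over B16F10-BrM). Itgb3, the other vitronectin receptor subunit, stood at 22.3, 18.3 and 20.4 in the 482N1 libraries, 12.6, 14.6 and 11.3 in those of B16F10-BrM and 28.9, 29.8 and 31.4 in those of E0771-BrM and was highest in E0771-BrM (log2 fold change 0.56 ± 0.13, adjusted p = 0.000112 over 482N1).

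Itgb7, known from lymphocytes as the partner of α4 or αE in homing receptors, was abundant in E0771-BrM. It stood at 1.81, 2.41 and 0.887 in the 482N1 libraries, 0, 0.125 and 0 in those of B16F10-BrM and 113, 130.4 and 103 in those of E0771-BrM, with the E0771-BrM libraries far from all others, 67-fold over 482N1 (log2 fold change 6.07 ± 0.18, adjusted p = 1.63e-31). B16F10-BrM had 1 read, so that the ratio of E0771-BrM to it was 3030.2 (95% counting interval 543 to 119728). Per kilobase Itgb7 reached 43.1 ± 5.09 CPM in E0771-BrM against 148 ± 3.64 for Itgb1. Its α partners Itga4 and Itgae are not analysed here. Of 7 myeloid markers, Cd14 and Cd68 were measured, with a summed level of 21.9 to 27.3 in E0771-BrM, 24.7 to 34.2 in 482N1 and 0.502 to 0.625 in B16F10-BrM. They differed in opposite directions between E0771-BrM and 482N1. Cd68 averaged 2.51 ± 0.981, 0.57 ± 0.0626 and 15.8 ± 2.0 in 482N1, B16F10-BrM and E0771-BrM. Like Itgb7, it was highest in E0771-BrM (log2 fold change 2.65 ± 0.24, adjusted p = 4.16e-14 over 482N1). Cd14 averaged 9.0 ± 0.801 in E0771-BrM, lower than the 27.2 ± 3.78 in 482N1 (log2 fold change -1.6 ± 0.17, adjusted p = 7.07e-12). B16F10-BrM had no read of Cd14. Ptprc, the leukocyte marker CD45, is not analysed here, so the part of other cells in the Itgb7 level was not tested. Of 7 endothelial and 7 fibroblast markers, 2 and 1 were measured. In 482N1, B16F10-BrM and E0771-BrM, Flt1 averaged 93.6 ± 6.97, 0.0418 ± 0.0724 and 6.17 ± 0.984. Egfl7 averaged 2.89 ± 0.301, 7.51 ± 1.46 and 30 ± 2.08, and Pdgfrb 0, 0.796 ± 0.125 and 2.14 ± 0.668. Whether other cells contributed to these levels was not tested.

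Summed per kilobase, α subunit RNA exceeded β subunit RNA in 482N1 and lay below it in the other lines. The α sum was 276 ± 8.97 CPM per kilobase in 482N1, 51.5 ± 2.41 in E0771-BrM and 28.1 ± 1.05 in B16F10-BrM. The β sum was 167 ± 8.0, 203 ± 6.54 and 89.9 ± 3.33 in that order. The α sum over the β sum was therefore 1.66 ± 0.0933 in 482N1, 0.254 ± 0.0179 in E0771-BrM and 0.313 ± 0.0175 in B16F10-BrM, with 482N1 apart from both others. These sums cover the measured subunits, and the α subunits 4, 8, 9, 10, 11 and E and the β subunits 6 and 8 are not analysed here.

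Matrix chains were then read beside their receptor subunits, as levels per kilobase of exon and without a test, since RNA levels of partners need not match. For the anchoring laminin of epithelia, 482N1 held Lamb3 at 5.57 ± 0.65 CPM per kilobase, with Itga3 at 25.6 ± 0.825, Itga6 at 207 ± 6.92 and Itgb4 at 7.57 ± 0.59. B16F10-BrM had no read of Lamb3 and Itga3, and Itgb4 at 0.217 ± 0.132. E0771-BrM held Lamb3 at 0.112 ± 0.0465 and Itgb4 at 0.026 ± 0.0119, with Itga3 at 4.56 ± 0.602. This β chain and both α6β4 receptor subunits were thus highest in 482N1.

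For laminins with the α5 chain, Lama5, Lamb1 and Lamc1 stood at 9.92 ± 1.38, 54.1 ± 2.05 and 7.79 ± 0.347 in 482N1, all present beside Itga3, Itga6 and Itgb1 (144 ± 6.57). In E0771-BrM the same chains stood at 1.33 ± 0.153, 72.4 ± 0.478 and 14.5 ± 1.05, beside Itga6 at 27.6 ± 1.08 and Itgb1 at 148 ± 3.64. There the β1 and γ1 chains exceeded the level in 482N1, while the α5 chain and the α6 receptor subunit were both lower. Itga3 was lower in E0771-BrM too, at 4.56 ± 0.602 against 25.6 ± 0.825 in 482N1. Itga7 was low but went the other way, at 1.01 ± 0.299 against 0.45 ± 0.165. In B16F10-BrM, Itga6 (18.8 ± 0.786) and Itgb1 (84 ± 3.22) stood well above the laminin chains, of which Lamb2 (5.99 ± 0.845) and Lamc1 (4.54 ± 0.293) led.

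For collagens, 482N1 held Col4a1 at 29.8 ± 0.826 beside Itga2 at 23.2 ± 1.65 and Itga1 at 4.61 ± 0.636. E0771-BrM held Col4a1 at 20.7 ± 0.926 and Col5a1 at 16.1 ± 1.26 beside Itga1 at 7.31 ± 0.113 and Itga2 at 1.49 ± 0.169. B16F10-BrM held Col4a1 at 0.982 ± 0.138, below Itga1 at 1.87 ± 0.202, with Itga2 at 0.0486 ± 0.0719. For fibronectin the ligand and the dedicated receptor subunit diverged. Fn1 stood at 61.3 ± 5.06 in 482N1 with Itga5 at only 0.607 ± 0.118, while Itgav stood at 15.1 ± 2.13. In E0771-BrM Fn1 fell to 0.117 ± 0.0455 while Itga5 (0.726 ± 0.0602) and Itgav (8.77 ± 0.962) were still read. B16F10-BrM held Fn1 at 2.5 ± 0.313, Itga5 at 0.171 ± 0.101 and Itgav at 7.23 ± 0.768. Npnt stood at 53.6 ± 2.93 in 482N1 beside Itgb1 at 144 ± 6.57. Tnc stood at 0.773 ± 0.135 in E0771-BrM beside Itgav at 8.77 ± 0.962, Itgb3 at 5.19 ± 0.219 and Itgb1 at 148 ± 3.64. The subunits α8 and α9, which also pair with these ligands, are not analysed here.

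**Figure D5:**
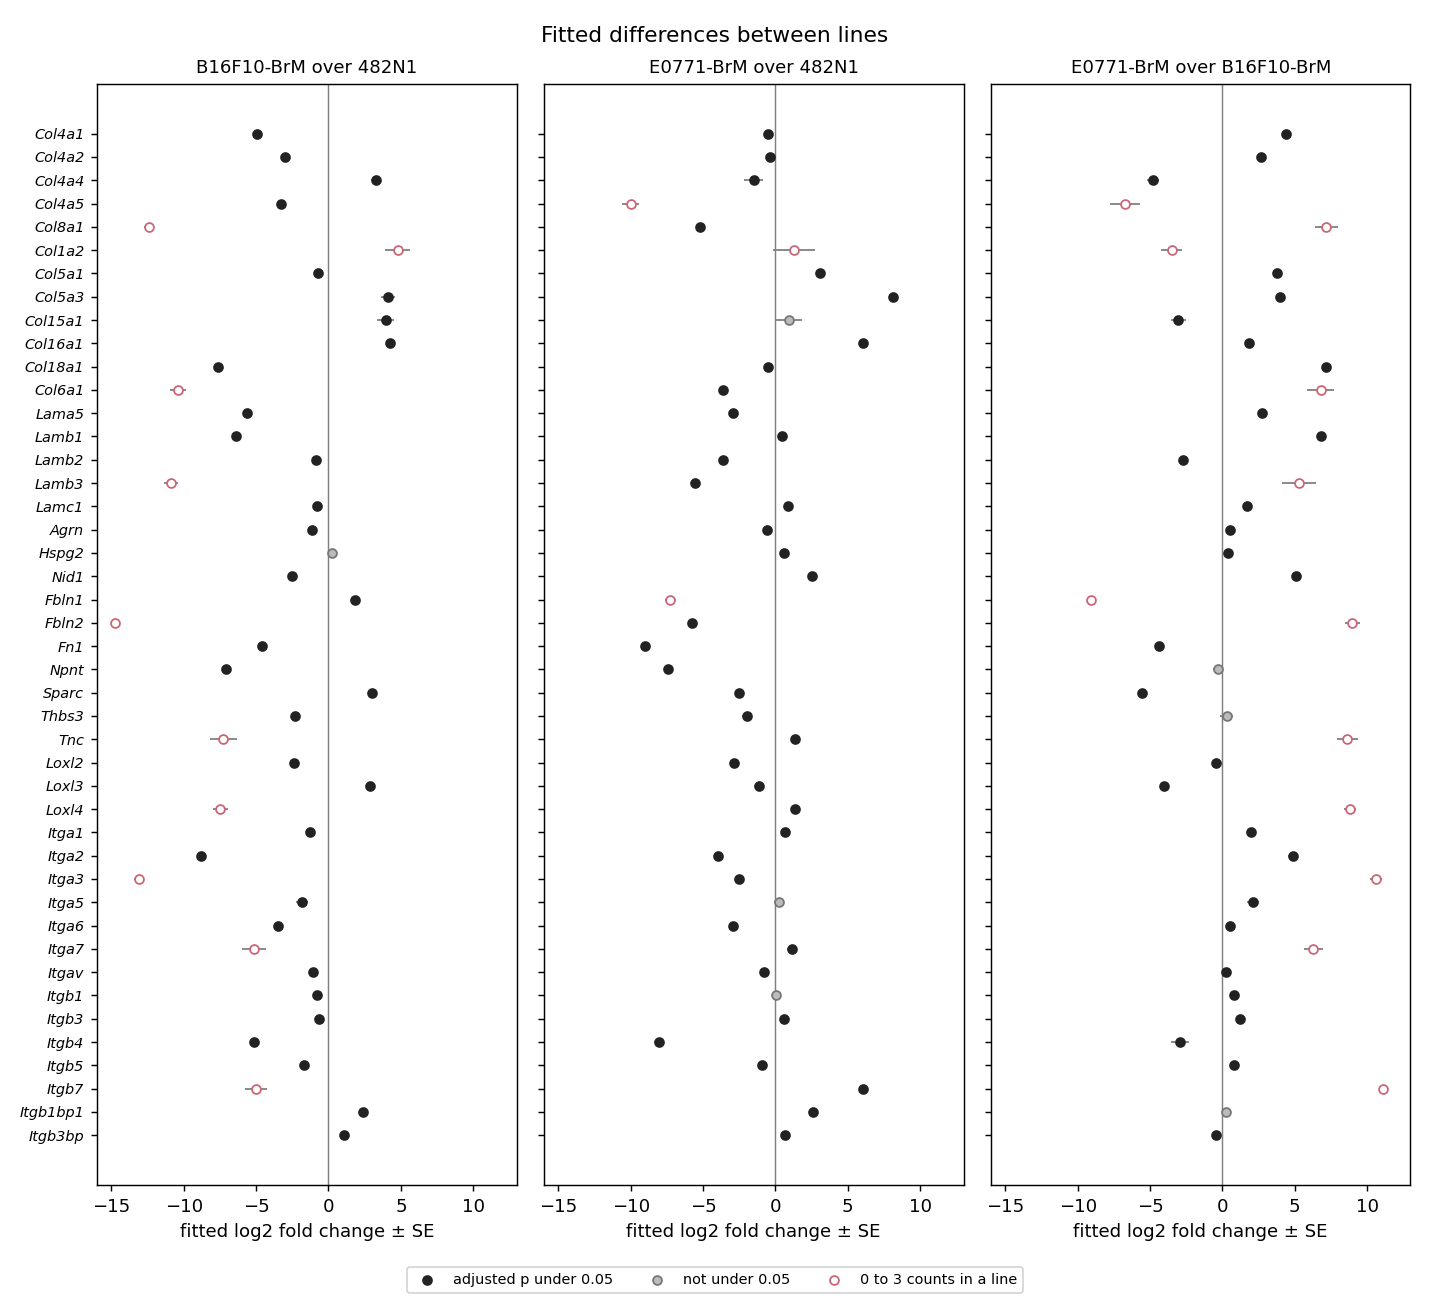
Fitted log2 fold change ± SE (horizontal axes) of the 44 genes in the 3 comparisons of lines. Filled black points passed an adjusted p of 0.05, grey points did not, and open red points mark genes with 0 to 3 counts in a line, whose fitted value depends on the model and is no measured fold. Most genes lie left of 0 in B16F10-BrM over 482N1 and right of 0 in E0771-BrM over B16F10-BrM.

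A pair of genes fit the symbol rule by name only and are neither matrix nor integrin genes. Itgb1bp1, which encodes ICAP-1, a protein that binds the cytoplasmic tail of β1 and restrains its activation, stood at 8.0, 9.27 and 10.1 in the 482N1 libraries, 41.6, 47.7 and 54.5 in those of B16F10-BrM and 53, 59.3 and 54.2 in those of E0771-BrM. It was 5.23-fold higher in B16F10-BrM (log2 fold change 2.39 ± 0.13, adjusted p = 1.09e-21) and 6.07-fold higher in E0771-BrM (log2 fold change 2.6 ± 0.13, adjusted p = 3.55e-23) than in 482N1. Between those 2 lines it was near the threshold (log2 fold change 0.21 ± 0.11, adjusted p = 0.0664), passed in 4 of the alternative fits, at 0.21 to 0.32, and is not called here. Itgb3bp, which encodes a centromere protein, averaged 15.3 ± 2.99, 32.2 ± 1.24 and 23.7 ± 3.3.

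Replicates within a line were close for these genes. Among those with a line mean of at least 20 CPM, the median coefficient of variation was 5.52% over 26 genes in 482N1, 5.98% over 22 in E0771-BrM and 8.5% over 13 in B16F10-BrM. Over all genes at that level it was 7.21%, 6.52% and 6.41% in that order. The largest were 14.5% for Agrn in 482N1, 22.4% for Loxl4 in E0771-BrM and 14.7% for Loxl3 in B16F10-BrM.

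Genes outside the symbol rule that act on the same proteins were counted in 4 fixed lists. The shares of all genes called higher and lower were 38% and 39.9% in B16F10-BrM over 482N1, 37.7% and 40.4% in E0771-BrM over 482N1, and 37.2% and 36.5% in E0771-BrM over B16F10-BrM, and the shares of each list are read against these. Of 20 collagen-processing genes 18 were measured. In B16F10-BrM against 482N1, 7 were higher (38.9%) and 9 lower (50%), in E0771-BrM against 482N1 12 (66.7%) and 4 (22.2%), and in E0771-BrM against B16F10-BrM 11 (61.1%) and 5 (27.8%), with medians of -0.15, 0.70 and 0.64. The share higher in B16F10-BrM than in 482N1 was close to that of all genes. P3h4, which helps lysyl hydroxylation of collagen, averaged 78.6 ± 2.34 in 482N1 and 37.3 ± 2.78 in E0771-BrM with no read in B16F10-BrM. P3h2, a prolyl 3-hydroxylase that acts on type IV collagen, averaged 25.9 ± 0.818 in B16F10-BrM and 3.08 ± 1.68 in 482N1, with no read in E0771-BrM. P4ha3, a prolyl 4-hydroxylase subunit, averaged 13.3 ± 0.356 in E0771-BrM and 2.85 ± 1.12 in 482N1, with no read in B16F10-BrM. Adamts14, a procollagen peptidase, averaged 19 ± 1.06 in E0771-BrM and 0.374 ± 0.115 in 482N1 (log2 fold change 5.61 ± 0.32, adjusted p = 3.22e-21).

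Of 25 further genes of the integrin adhesome list 24 were measured. In B16F10-BrM 7 were higher (29.2%) and 14 lower (58.3%) than in 482N1, in E0771-BrM 8 (33.3%) and 13 (54.2%) than in 482N1, and 9 (37.5%) and 10 (41.7%) than in B16F10-BrM, with medians of -0.41, -0.49 and -0.12. The last pair of shares lay near those of all genes. Tns1, tensin-1, which ties β tails to actin, averaged 64 ± 6.95, 0.0347 ± 0.0601 and 4.83 ± 1.37 in 482N1, B16F10-BrM and E0771-BrM. Cav1, caveolin-1, averaged 51.5 ± 3.9, 2.11 ± 0.228 and 58.1 ± 1.13. Tln2, talin-2, which activates integrins through the β tail, averaged 4.17 ± 1.52, 50.8 ± 1.45 and 48.7 ± 1.69, higher in B16F10-BrM and E0771-BrM than in 482N1 (log2 fold change 3.6 ± 0.15, adjusted p = 3.06e-26 and log2 fold change 3.54 ± 0.15, adjusted p = 1.02e-25). Lims2, an adaptor bound to integrin-linked kinase, averaged 3.12 ± 1.78, 1.2 ± 0.321 and 14.7 ± 1.65.

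Among 16 other matrix receptors 13 were measured. In B16F10-BrM 6 were higher (46.2%) and 7 lower (53.8%) than in 482N1, in E0771-BrM 4 (30.8%) and 9 (69.2%) than in 482N1, and 5 (38.5%) and 7 (53.8%) than in B16F10-BrM, with medians of -0.71, -1.23 and -0.41. The collagen receptor kinases Ddr1 and Ddr2 ran in opposite directions. Ddr1 averaged 118 ± 9.04, 52.7 ± 2.45 and 2.52 ± 0.236 in 482N1, B16F10-BrM and E0771-BrM (log2 fold change -5.54 ± 0.14, adjusted p = 1.99e-35 for E0771-BrM over 482N1). Ddr2 averaged 0.382 ± 0.38, 116 ± 6.27 and 185 ± 5.13 (log2 fold change 8.88 ± 0.19, adjusted p = 7.31e-38). Mcam, an adhesion molecule that binds laminin α4, averaged 0.0824 ± 0.0714, 49.1 ± 11.5 and 1.48 ± 0.219, and the syndecan Sdc3 averaged 4.78 ± 0.877, 8.67 ± 0.775 and 0.0839 ± 0.0726.

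Of 35 other matrix proteins 14 were measured. In B16F10-BrM 1 was higher (7.14%) and 12 lower (85.7%) than in 482N1, in E0771-BrM 3 (21.4%) and 9 (64.3%) than in 482N1, and 12 (85.7%) and 2 (14.3%) than in B16F10-BrM, with medians of -4.39, -1.36 and 2.96. Fbn1, fibrillin-1 of elastic microfibrils, had reads in E0771-BrM alone, at 19.7 ± 1.55. Emilin2, another elastic fibre glycoprotein, averaged 34.9 ± 2.55 in E0771-BrM, 0.708 ± 0.177 in 482N1 and 0 in B16F10-BrM. Ccn2, a matricellular growth factor, averaged 162 ± 4.52, 1.17 ± 0.507 and 0.372 ± 0.217, and Spp1, osteopontin, an RGD ligand of αv integrins and a secreted phosphoprotein, averaged 870.0 ± 23.7, 2.18 ± 0.0413 and 150.2 ± 12.6. Both were lower in B16F10-BrM and in E0771-BrM than in 482N1 (Ccn2 log2 fold change -7.08 ± 0.16, adjusted p = 1.45e-37 and log2 fold change -8.71 ± 0.19, adjusted p = 9.78e-38, Spp1 log2 fold change -8.63 ± 0.12, adjusted p = 3.98e-46 and log2 fold change -2.53 ± 0.07, adjusted p = 1.03e-32).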

How the data were processed

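Poly(A)-selected, stranded RNA libraries were made from 3 mouse tumour lines, 3 per line. The deposited values are raw read counts per gene symbol. Per the submitters' processing notes the authors' tools were TopHat2 2.0.10 with Bowtie 1.0.0, then Cufflinks 2.2.1, beside FastQC and SAMtools 0.1.19, on build GRCm39. The counting tool, annotation and selection of genes are not given in the sources used here, and a gene absent from the table is not analysed here.

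Counts were fitted in R 4.3.3 with edgeR 4.0.16 (filterByExpr, which removed 9 genes, TMM, robust quasi-likelihood F tests, 1 coefficient per line over all 9 libraries, 2-sided, Benjamini-Hochberg over 11037 genes, threshold 0.05). The common dispersion was 0.0059. A gene was highest in a line where both pairwise differences pointed up, with the higher one-sided p of the pair adjusted. SEs were taken from the fold change and its F statistic. The procedure was tested on simulated data. A line with no count was given a floor of 3 counts over its libraries, and one with 1 to 3 counts a ratio with an exact 95% interval. Floors and intervals reflect counting error alone and leave out the spread between libraries, so the intervals are too narrow where that spread is larger. PCR copies were also not told apart by molecular identifiers.

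Levels per kilobase used the union of exons of GENCODE M21 basic protein-coding transcripts (GRCm38). Protein lengths had been planned, and exon lengths were chosen after the files were seen. Promoters came from RefSeq (GRCm38.p6).

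Of the 45 genes the symbol rule found, 1 is not reported here, and it is left out of every count and sum over these genes. The genes, lists and tests were chosen with earlier results of these data known. Libraries were written out for genes with a line mean of at least 50 CPM and for members of fixed matrix-receptor pairs, and up to 4 called genes per related list were named by absolute log2 fold change. Older symbols that named a gene already in a list were dropped from it. Replicates of a line differed by 4.17 to 7.7 times the chi-square expected from counting. Alternatives were DESeq2 1.42.0, RLE size factors, no filter, a filter of 1 CPM in 3 libraries, the letter as a block, only the 2 lines compared, ribosomal RNA genes removed, library B alone of 482N1 and E0771-BrM, and each library left out.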

Additional observations from a re-analysis of the deposited data

How the results depend on the processing

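Over 17 alternative settings the counts of the 44 genes passing the test stayed within 1.5 times the reported ones: 32 to 33 lower and 10 higher in B16F10-BrM than in 482N1, 22 to 25 lower and 14 to 15 higher in E0771-BrM than in 482N1, and 27 to 30 higher and 10 to 12 lower in E0771-BrM than in B16F10-BrM. Of 2236 refitted log2 fold changes of single genes, 2210 kept direction and side of the threshold, 19 lost the call, 4 gained it and 3 changed sign. All 3 of the last came from library B alone of 482N1 and E0771-BrM, in E0771-BrM over 482N1: Col1a2 at -3.21, Col4a4 at 0.71 and Itga5 at -0.17 (adjusted p of 0.375, 0.564 and 0.804). In that setting the spread came from B16F10-BrM alone, and the cause was not tested. Col4a2, Itga7, Loxl3, Itgav and Itgb3bp each lost 1 call there. The labels do not say that a library letter is shared between lines. Deviations from the line means correlated at -0.0122 to 0.163 between same-letter libraries of different lines, over 0.1 in 4 of 9 pairs, and at -0.199 to 0.0834 between other libraries. All 6 same-letter pairs with E0771-BrM, at 0.0842 to 0.163, lay above every other pair, and the own letter was the best match in 12 of 18 cases, a hint from the data and not from the design. With the library letter as a replicate block, 24 genes were lower in E0771-BrM than in 482N1 in place of 25 and 30 higher in E0771-BrM than in B16F10-BrM in place of 29. Col4a4 in E0771-BrM over 482N1 was -1.49 (adjusted p = 0.0506) and Itgb1bp1 in E0771-BrM over B16F10-BrM was 0.22 (adjusted p = 0.0475), and no other call of the 44 genes changed. Depth sets a floor of 0.361 to 0.387 CPM for 3 counts in 1 library of 482N1, 0.313 to 0.376 in B16F10-BrM and 0.36 to 0.381 in E0771-BrM, so Col1a2, Col4a4, Col15a1 and Itga7 are known only roughly. Every library of 482N1 for Col5a3 and of E0771-BrM for Itgb4 also lay under this floor, with 4 reads per line. The folds of these genes against those lines are therefore rough too.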
